A study of Mus musculus with 24 samples.

Results

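The comparison described here set LAG3_SP CD8+ T cells against DN CD8+ T cells sorted from the lymph nodes of tumor-bearing mice, using 4 of the 24 ATAC-seq libraries of the series. ATAC-seq cuts open chromatin with the Tn5 transposase, so a peak marks a stretch of DNA that is accessible in the sorted cells. The mice carried Lag3-iCreERT2 and Rosa26-LSL-tdTomato on a C57BL/6 background, B16-F10 melanoma cells (a mouse melanoma line) had been implanted under the skin, and 2 mg of tamoxifen was injected on each of days 8 to 10. On day 19, CD8+ T cells were sorted from the node that drains the tumor (DLN) and from a non-draining one (NDLN). DN cells were negative for LAG3 and for tdTomato. LAG3_SP libraries are described in their labels as LAG3-negative and tdTomato-positive, whereas their name would read as LAG3 single-positive, so the library name is kept here. TDT_SP libraries hold tdTomato-positive CD8+ T cells whose labels give no separate LAG3 state; replicate 1 from each node entered the shared fit, and their values are shown side by side only. All groups shared the tumor, the genotype and the tamoxifen, and every label gives the same batch. The members were the lymph node LAG3_SP and DN lists with 10000 or more peaks, which left 1 library per node and subset: 34123 peaks in DLN LAG3_SP, 14244 in NDLN LAG3_SP, 37544 in DLN DN and 33631 in NDLN DN. The second DN libraries, with 301 (DLN) and 6613 (NDLN) peaks, fell below the minimum. As a model the design has stated limits: the Cre sits at Lag3, so a cell was labelled only if it expressed Lag3 while tamoxifen was present, a DN sort holds every CD8+ T cell that was not labelled and lacks surface LAG3, and the labels do not say how many mice, pooled or separate, stand behind a library.

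LAG3 is an inhibitory receptor that T cells place on their surface after antigen recognition, and cells that lose it again are no longer found by staining alone. The tdTomato mark stays after Lag3 expression has ended, so a LAG3-negative, tdTomato-positive cell has a history of Lag3 expression. Naive CD8+ T cells in a lymph node are known for open chromatin at genes such as Lef1, Tcf7, Bach2 and Ccr7, and antigen-experienced cells for open enhancers at genes of effector function, inhibitory receptors and the NR4A factors.

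Each list was ranked by the authors' -log10 p and cut to its 14244 strongest peaks, the length of the shortest list. A peak then carried a rank value, 1 for the strongest of its list and near 0 for the weakest, and a region, which reached 250 bp to either side of a summit, was set to 0 where a library had no kept peak. A rank value thus gives a place in the order of 1 library, and it says nothing of how much chromatin was open. Without read counts in the lists, no depth can be given for a peak. The NDLN LAG3_SP library stood apart from the other 3. Its kept peaks had a median width of 164 bp against 457 to 494 bp, a median fold over background of 6.45 against 12 to 13.1, and a lowest kept -log10 p of 4.31 against 14.6 to 18.5. Results are therefore also given without it. At CD8 T cell markers (Cd8a, Cd8b1, Cd3e, Cd3d, Cd3g), 4 or 5 of 5 genes had a kept peak in each of the 4 lists, with summed highest rank values of 1.79 and 2.35 in LAG3_SP and 1.74 and 1.33 in DN. Cd3d and Cd3g had the same highest rank value in each list, 0.464 and 0.495 in LAG3_SP and 0.342 and 0.253 in DN. The sums count it for both genes. Cd8a itself had no kept peak within 2 kb in DLN LAG3_SP. The NK markers Ncr1 and Klrb1c had none in any of the 4 lists. B cell markers had a peak at 1 of 5 genes in each LAG3_SP list and at 0 in the DN lists (sums 0.118 and 0.196 against 0), and myeloid markers at 2 of 4 genes in DLN LAG3_SP (sum 0.214) and at 0 in the other lists. CD4 and Treg markers had peaks at 2 of 3 genes in DLN LAG3_SP, among them Foxp3 at 0.482, at 0 in NDLN LAG3_SP, and at 1 (Cd4) in each DN list (sums 0.747, 0, 0.463 and 0.487). Melanoma markers had peaks at 2 of 5 genes in every list (Mitf and Pmel, sums 1.65 to 1.93), while Dct, Tyr and Sox10 had none, and stroma and endothelium markers had peaks at 1 or 2 of 4 genes (sums 0.0369 to 0.601). The part of other cells in the results was not tested.

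Of 23368 regions, 758 were called higher in LAG3_SP than in DN (3.24% of those tested) and 1900 lower (8.13%), 2658 in all (11.4%; limma, Benjamini-Hochberg adjusted p under 0.05). Falls thus outnumbered rises. The regions that fell lay mostly away from promoters and included 8 regions of Prkcq, 6 of Bach2, 8 of Btg1 and 3 of Tox. The regions that rose lay mostly at transcription starts, though not in the calls made without DLN LAG3_SP, and among the genes of T cell biology the rises included 2 regions of Nr4a1. The median rank value of the lower regions was 0.468 in DLN DN and 0.464 in NDLN DN and 0 in both LAG3_SP libraries. The median of the higher regions was 0.7 and 0.75 in DLN and NDLN LAG3_SP, and 0.222 and 0.184 in DLN and NDLN DN. Counting only whether both LAG3_SP values lay beyond both DN values, 3485 regions were higher (14.9%) and 5009 lower (21.4%).

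These calls rest on a spread shared by 15 libraries, of which 9 were tumor libraries, because 2 against 2 leaves 2 residual degrees of freedom. With the 4 libraries alone no region of 15592 was called (0%), although 3184 had an unadjusted p under 0.05. With the node as a block in those 4 libraries, 34 regions were called (0.218%), 3 higher and 31 lower. With the 6 lymph node libraries, none of 17740 was called (0%) and 3821 had an unadjusted p under 0.05. The p-values measure only the spread between these libraries, which may be technical. Where every tumor library had 0, those libraries added no spread of their own, so a smaller difference could be called. The tumor LAG3_SP and DN libraries had no kept peak at 1138 of the 1900 lower regions and 37 of the 758 higher ones. The part of this in the excess of falls was not tested. Without NDLN LAG3_SP, 921 regions were called higher and 1416 lower, and these included 382 of the 758 (50.4%) and 1305 of the 1900 (68.7%). Without DLN LAG3_SP the counts were 1832 and 2897, which held 555 of the 758 (73.2%) and 1719 of the 1900 (90.5%). Without DLN DN or without NDLN DN, fewer regions were called in either direction, and many of the 758 and 1900 calls were not among them. Each of these fits held node DN cells of the other node only.

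The NDLN DN replicate outside the fit was compared after these data had been seen, as a DN list that had no part in the calls. Cut to its strongest 3909 peaks, it had a peak at 12.2% of the lower regions, 13.9% of the higher regions and 15.8% of all regions. At the same length the DN libraries of the fit had a peak at 16.9% and 16.1% of the lower regions and at 8.58% and 7.65% of the higher ones. The short DN list therefore did not show the order of the DN libraries in the fit. The DLN TDT_SP replicate outside the fit, at the same length, had a peak at 4.05% of the lower and 25.7% of the higher regions, and 15.4% of all.

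**Figure D1:**
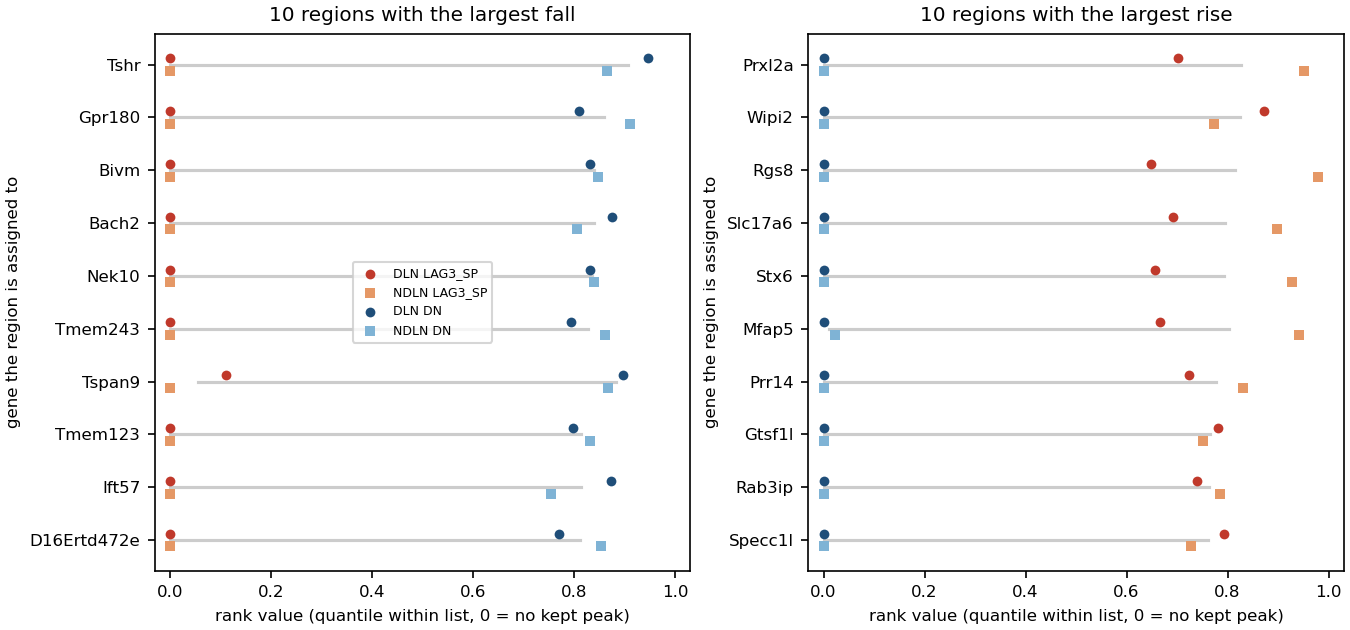
Rank values of the 10 regions with the largest fall (left) and the largest rise (right) in LAG3_SP against DN. Each point is 1 library, red and orange for LAG3_SP and dark and light blue for DN, circles for DLN and squares for NDLN, and grey lines join the group means. At each region shown, both LAG3_SP values lie on 1 side of both DN values.

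The largest fall was near Tshr, the thyrotropin receptor gene (chr12:91523588-91524088, GRCm38). Its rank value was 0 in both LAG3_SP libraries, 0.946 in DLN DN and 0.865 in NDLN DN (difference -0.906, SE 0.0825, adjusted p 1.5e-05). The region was thus among the strongest peaks of both DN lists and had no kept peak in either LAG3_SP list: the whole DLN LAG3_SP list held a weak one below the cut, at a fold over background of 8, and NDLN LAG3_SP held none. The other 9 of the 10 largest falls, assigned to Gpr180, Bivm, Bach2, Nek10, Tmem243, Tspan9, Tmem123, Ift57 and D16Ertd472e, lay between -0.86 and -0.811. Of these, DLN LAG3_SP had a kept peak only at Tspan9, a tetraspanin gene (0.111). The largest rise was at Prxl2a, a peroxiredoxin-like gene (chr14:40999845-41000345), with 0.701 in DLN LAG3_SP, 0.952 in NDLN LAG3_SP and 0 in both DN libraries (difference 0.826, SE 0.123, adjusted p 0.000618). The next, at Wipi2, an autophagy gene, covered the gene's start. The others were assigned to Rgs8, Slc17a6, Stx6, Mfap5, Prr14, Gtsf1l, Rab3ip and Specc1l, with differences of 0.761 to 0.815. Each region was assigned to the nearest gene, and nearness does not show control. Among these rises NDLN LAG3_SP lay above DLN LAG3_SP at Prxl2a, Rgs8, Slc17a6, Stx6, Mfap5, Prr14 and Rab3ip and below it at Wipi2, Gtsf1l and Specc1l.

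Promoters differed between the 2 directions in the calls from all 4 libraries, and the windows below show how. Of the higher regions with a listed start on their chromosome, 65.5% had their middle within 1 kb of a transcription start in the RefSeq table, against 7.26% of the lower regions and 39.2% of all regions. RefSeq promoter windows (250 bases before to 50 after the start, build GRCm38.p6) whose start lay inside a region called higher numbered 559 and held 62.9% ± 7.17 G and C (SD) and 25.2 ± 8.64 CpG pairs (SD). The 84 windows whose start lay in a region called lower held 53% ± 8.64 and 11 ± 8.75. All 32585 windows held 53.9% and 12.5 on average, and the 8043 windows in tested regions that were not called held 62% and 23.3, close to the higher ones. The 3 windows with the largest rise and the 3 with the largest fall, chosen after their values were seen and from regions assigned to the same gene, are printed 5′ to 3′ on the gene's strand, with CpG pairs in capitals.
Wipi2 (higher, chr5:142629334-142629633, plus strand): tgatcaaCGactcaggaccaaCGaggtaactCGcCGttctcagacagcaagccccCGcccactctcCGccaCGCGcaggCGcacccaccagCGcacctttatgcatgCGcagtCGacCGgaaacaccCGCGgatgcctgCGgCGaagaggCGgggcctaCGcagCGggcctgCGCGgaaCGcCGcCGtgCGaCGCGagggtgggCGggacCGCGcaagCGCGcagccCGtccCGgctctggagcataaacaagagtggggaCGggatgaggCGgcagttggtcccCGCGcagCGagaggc
Rab3ip (higher, chr10:116950404-116950703, minus strand): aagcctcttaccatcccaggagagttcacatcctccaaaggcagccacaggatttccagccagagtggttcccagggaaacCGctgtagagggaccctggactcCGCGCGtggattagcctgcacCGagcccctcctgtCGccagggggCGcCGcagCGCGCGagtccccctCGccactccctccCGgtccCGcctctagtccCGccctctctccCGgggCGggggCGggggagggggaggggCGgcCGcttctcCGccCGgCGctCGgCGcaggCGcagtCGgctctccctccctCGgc
Sde2 (higher, chr1:180850901-180851200, plus strand): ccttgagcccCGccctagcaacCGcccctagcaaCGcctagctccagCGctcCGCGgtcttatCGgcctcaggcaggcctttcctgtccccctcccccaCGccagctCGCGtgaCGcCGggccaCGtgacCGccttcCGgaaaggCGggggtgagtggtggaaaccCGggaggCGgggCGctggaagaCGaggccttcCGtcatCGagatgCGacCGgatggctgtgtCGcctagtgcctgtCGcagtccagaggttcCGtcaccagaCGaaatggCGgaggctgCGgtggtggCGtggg
Gpr15 (lower, chr16:58718823-58719122, minus strand): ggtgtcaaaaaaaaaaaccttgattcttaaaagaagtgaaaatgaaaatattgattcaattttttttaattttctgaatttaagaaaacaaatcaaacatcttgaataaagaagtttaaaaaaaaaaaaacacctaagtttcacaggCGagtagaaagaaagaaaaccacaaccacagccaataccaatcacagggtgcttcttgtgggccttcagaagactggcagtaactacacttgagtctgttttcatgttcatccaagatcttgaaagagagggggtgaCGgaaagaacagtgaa
Klhl6 (lower, chr16:19983000-19983299, minus strand): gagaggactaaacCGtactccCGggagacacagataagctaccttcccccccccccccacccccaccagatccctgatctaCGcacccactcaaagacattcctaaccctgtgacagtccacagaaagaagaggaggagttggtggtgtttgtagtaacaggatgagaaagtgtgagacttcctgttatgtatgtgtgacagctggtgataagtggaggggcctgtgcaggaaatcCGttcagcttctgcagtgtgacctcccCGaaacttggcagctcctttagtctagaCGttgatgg
Zfp65 (lower, chr13:67729124-67729423, minus strand): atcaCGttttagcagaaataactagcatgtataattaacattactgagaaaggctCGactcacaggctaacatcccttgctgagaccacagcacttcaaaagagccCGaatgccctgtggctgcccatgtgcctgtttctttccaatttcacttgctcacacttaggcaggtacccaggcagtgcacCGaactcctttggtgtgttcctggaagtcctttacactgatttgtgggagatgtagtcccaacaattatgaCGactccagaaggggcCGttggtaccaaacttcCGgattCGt

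The Wipi2, Rab3ip and Sde2 windows held 40, 28 and 31 CpG pairs, and the Gpr15, Klhl6 and Zfp65 windows 2, 6 and 8. At the Wipi2 start the rank values were 0.873 and 0.774 in DLN and NDLN LAG3_SP and 0 in both DN libraries (difference 0.824, SE 0.0797, adjusted p 2.3e-05). The authors' fold over background there was 20.7 in DLN LAG3_SP and 8.74 in NDLN LAG3_SP, and weak peaks below the cut were present in the whole DN lists, at 7.21 and 7.3. The promoter was thus listed in all 4 libraries and differed in its place in the order. At the start of Gpr15, a chemoattractant receptor gene that guides T cells to the gut, the rank values were 0.214 and 0 in LAG3_SP and 0.866 and 0.809 in DN (difference -0.731, SE 0.141, adjusted p 0.00415). Its fold over background was 9.58 in DLN LAG3_SP, 21.8 in DLN DN and 18.7 in NDLN DN, and NDLN LAG3_SP had no peak there. The Gpr15 window is also short of G and C, at 33.7%. Klhl6, an adaptor of a ubiquitin ligase, had 0.0829 and 0 in LAG3_SP and 0.813 and 0.674 in DN.

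Short motifs in these windows were counted on both strands, and none of the motifs contains another. The ETS letters CCGGAAGT stood in 12% of windows under higher regions, 7.14% under lower regions, 10.8% under regions tested and not called, and 3.92% of all windows. The AP-1 letters TGANTCA stood in 4.11%, 9.52%, 4.3% and 7.85% of the same sets. The NFAT letters TGGAAAA stood in 2.15%, 9.52%, 4.21% and 6.76%, and the RUNX letters TGTGGTTT in 0.716%, 5.95%, 1.19% and 1.79%. The KLF letters GGGTGTGG stood in 6.62%, 4.76%, 3.62% and 3.57%. The windows under higher regions thus resembled other tested promoters in ETS and AP-1 letters, while they held KLF letters more often and NFAT letters less often. Further motifs were counted and are not given here. A match is a description of letters, and the lower set has only 84 windows.

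Rises were most frequent close to a start, and falls grew more frequent with distance from it. Within 1 kb of a start, 5.5% of 8894 regions were called higher and 1.48% lower. From 1 to 10 kb, the shares were 1.62% and 9.87% of 4013 regions. Beyond 50 kb they were 1.58% and 14.8% of 3347 regions. The libraries differed in the same way as a whole: 50.1% and 48.2% of kept summits lay within 1 kb of a gene end in DLN and NDLN LAG3_SP, and 43.4% and 42.8% in DLN and NDLN DN. The groups did not overlap, but 2 against 2 libraries cannot reach an exact permutation p below 0.333. The TDT_SP libraries lay between them by the distance to a listed start, at 47.1% and 46.8%, against 49.9% and 48.5% in LAG3_SP and 43.3% and 42.9% in DN. Since rank values are relative within a list, the part of this library-wide share in single calls was not tested. Calls made without NDLN LAG3_SP kept the pattern, with 61.8% of the higher and 9.75% of the lower regions within 1 kb of a start, but those made without DLN LAG3_SP did not. There, 36.1% of the higher regions lay within 1 kb of a start, below the 39.2% of all regions in the full fit, and 25.1% of the lower ones did.

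**Figure D2:**
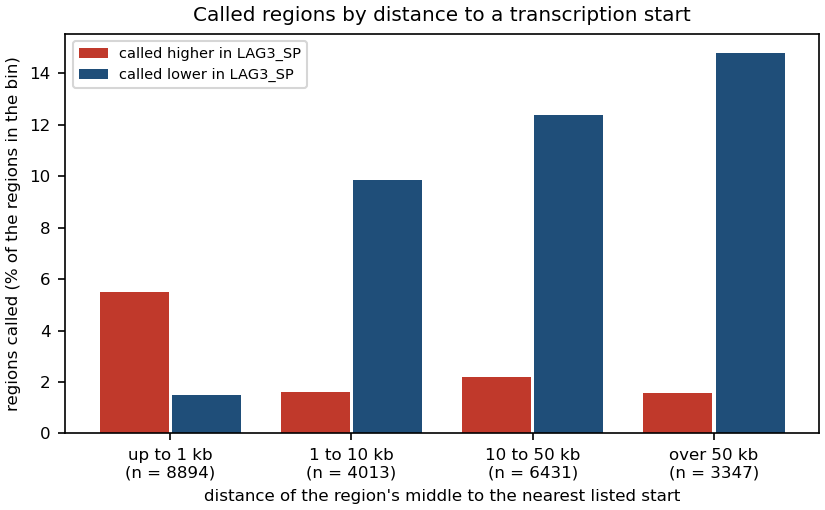
Share of regions called higher (red) and lower (blue) in LAG3_SP against DN, by distance from the middle of the region to the nearest listed transcription start, with the number of regions tested in each bin. Up to 1 kb, 5.5% were higher and 1.48% lower, and over 50 kb 1.58% and 14.8%.

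Prkcq encodes PKC-theta, the kinase that carries the T cell receptor signal to NF-kB and AP-1, and it had 8 of its 17 regions called lower and none higher. The region with the smallest p, inside the gene (chr2:11266525-11267025), had a rank value of 0 in both LAG3_SP libraries, 0.484 in DLN DN and 0.715 in NDLN DN (difference -0.599, SE 0.0609, adjusted p 3.2e-05). Without NDLN LAG3_SP the difference was -0.599 with an adjusted p of 0.000466. The 8 called regions spanned from 53.1 kb before the gene to 37.8 kb beyond it, with differences between -0.599 and -0.268. The one beyond the gene lay 0.42 kb from a listed start outside Prkcq. In these 8 regions the DN values ran from 0.198 to 0.794 and the LAG3_SP values from 0 to 0.214, and, region by region, both LAG3_SP values lay below both DN values. Not every Prkcq region was called. The region at chr2:11187143-11187643 had 0.424 and 0.607 in LAG3_SP and 0.65 and 0.665 in DN (adjusted p 0.63), and that at chr2:11218046-11218546 had 0.426 and 0.696 against 0.715 and 0.528 (adjusted p 0.924).

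**Figure D3:**
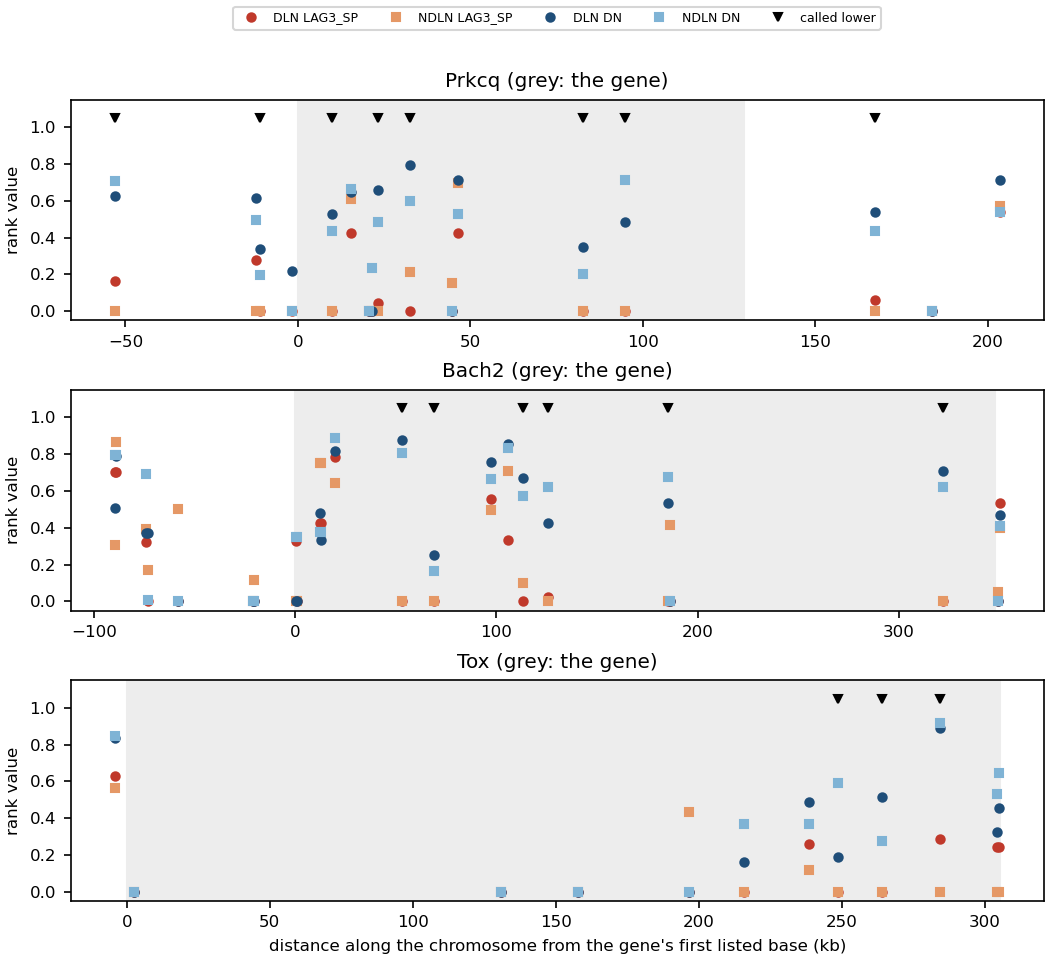
Rank values of the regions assigned to Prkcq, Bach2 and Tox along the chromosome, in kb from the first listed base of the gene, with the gene in grey. Points are libraries (red and orange LAG3_SP, dark and light blue DN) and black triangles mark the 8, 6 and 3 regions called lower, and the other regions were not called.

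Bach2, a repressor that keeps T cells in naive and memory states, had 6 of 23 regions called lower and none higher. The strongest in DN, inside the gene (chr4:32291349-32291849), had 0 in both LAG3_SP libraries, 0.875 in DLN DN and 0.805 in NDLN DN (difference -0.84, SE 0.0886, adjusted p 4.41e-05). The TDT_SP libraries had 0.372 and 0.631 there. The region with the smallest p (chr4:32423610-32424110) had 0 in both LAG3_SP and both TDT_SP libraries, and 0.536 and 0.678 in DN (difference -0.607, adjusted p 6.61e-06). A strong Bach2 peak that all 4 lists shared (chr4:32257978-32258478) had 0.787 and 0.642 in LAG3_SP and 0.816 and 0.89 in DN (adjusted p 0.623). Both called sites described here lacked a kept peak in LAG3_SP, while this one did not.

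Tox, a chromatin factor of exhausted T cells, had 3 of 12 regions called lower and none higher, all inside the gene. At chr4:6970423-6970923 the rank value was 0.286 in DLN LAG3_SP, 0 in NDLN LAG3_SP, 0.892 in DLN DN and 0.915 in NDLN DN (difference -0.76, SE 0.108, adjusted p 0.000442). The DN values were the highest of the 4, and the TDT_SP libraries stood close to them with 0.833 and 0.672. Without NDLN LAG3_SP the difference was -0.617 (adjusted p 0.00229). The other called Tox regions had 0 in both LAG3_SP libraries, 0.186 and 0.593 in DN at chr4:6934833-6935333 (adjusted p 0.0105), and 0.515 and 0.273 in DN at chr4:6950191-6950691 (adjusted p 0.00058).

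Lef1, a transcription factor of naive T cells, had 1 region of 12 lower and 1 higher. The lower one (chr3:131190628-131191128) had 0.0625 and 0 in LAG3_SP and 0.457 and 0.542 in DN (difference -0.468, SE 0.0425, adjusted p 1.46e-05). The higher one, near a listed Lef1 start (chr3:131112191-131112691), had 0.251 and 0.417 in LAG3_SP and 0 and 0.0515 in DN (difference 0.308, adjusted p 0.0423). The 2 sites in this gene therefore moved in opposite directions. The strongest Lef1 region, chr3:131208490-131208990, had 0.778 and 0.887 in LAG3_SP and 0.897 and 0.918 in DN and was not called (adjusted p 0.586).

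Of the genes of the naive and memory list, 21 of 146 regions were lower (14.4%) and 5 higher (3.42%), with a median difference of -0.00466, against 8.13%, 3.24% and a median of 0 over all regions. The lower ones included regions of Bach2, Bcl2, Ccr7, Eomes, Foxp1, Il7r, Klf3, Lef1, S1pr1 and Zeb1. Il7r, the receptor for the survival cytokine IL-7, had 0 in both LAG3_SP libraries and 0.531 and 0.485 in DN (chr15:9533293-9533793, difference -0.508, adjusted p 0.000193). Ccr7, the chemokine receptor that brings naive T cells into lymph nodes, had 1 of 5 regions called (chr11:99166199-99166699), with 0 in both LAG3_SP libraries and 0.157 and 0.187 in DN (difference -0.172, adjusted p 0.000568). Both DN values were low in the order, so this fall was small. Another Ccr7 region, chr11:99154916-99155416, had 0.784 and 0.582 in LAG3_SP and 0.498 and 0.518 in DN and was not called (adjusted p 0.561). Tcf7, the partner factor of Lef1, was not called in any of its 7 regions (smallest p region 0.152 and 0 against 0.141 and 0.341, adjusted p 0.168).

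S1pr1, the receptor that lets T cells leave the node, had 2 of 12 regions higher and 2 lower. Its higher region at chr3:115758311-115758811 had 0.618 and 0.914 in LAG3_SP and 0.125 and 0.243 in DN (difference 0.582, adjusted p 0.00664). Its lower region at chr3:115729121-115729621 had 0 and 0.0523 in LAG3_SP and 0.609 and 0.351 in DN (difference -0.454, adjusted p 0.00582). Foxp1, a factor of T cell quiescence, likewise had 2 of 17 regions higher and 3 lower. The homing and egress list as a whole had 2 of 45 regions higher (4.44%) and 5 lower (11.1%), with a median difference of -0.0532, against 3.24%, 8.13% and 0 over all regions.

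In the list of T cell receptor signalling genes and their brakes, which holds Prkcq, 28 of 203 regions were lower (13.8%) and 2 higher (0.985%), against 8.13% and 3.24% of all regions, and the median difference was 0. Without Prkcq, 20 of 186 regions were lower (10.8%), closer to the share of all regions. Cblb, a ubiquitin ligase that restrains the receptor, had 4 of 18 regions lower. At chr16:52200069-52200569 it had 0 in both LAG3_SP libraries and 0.567 and 0.718 in DN (difference -0.643, adjusted p 8.86e-05). Fyn had 3 of 12 regions lower, and Rasgrp1 had 3 of 16 lower and 1 higher. Cd28 had 2 of 10 regions lower and Ubash3b 2 of 9. At Cd28, the costimulatory receptor gene, the region chr1:60793691-60794191 had 0 in both LAG3_SP libraries and 0.335 and 0.653 in DN (adjusted p 0.000719). The T cell identity list, which also holds Prkcq, had 14 of 125 regions lower (11.2%) and 1 higher (0.8%). Of those 14, 8 were the Prkcq regions, and without them and the rest of Prkcq 6 of 108 regions were lower (5.56%), below the 8.13% of all regions.

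**Figure D4:**
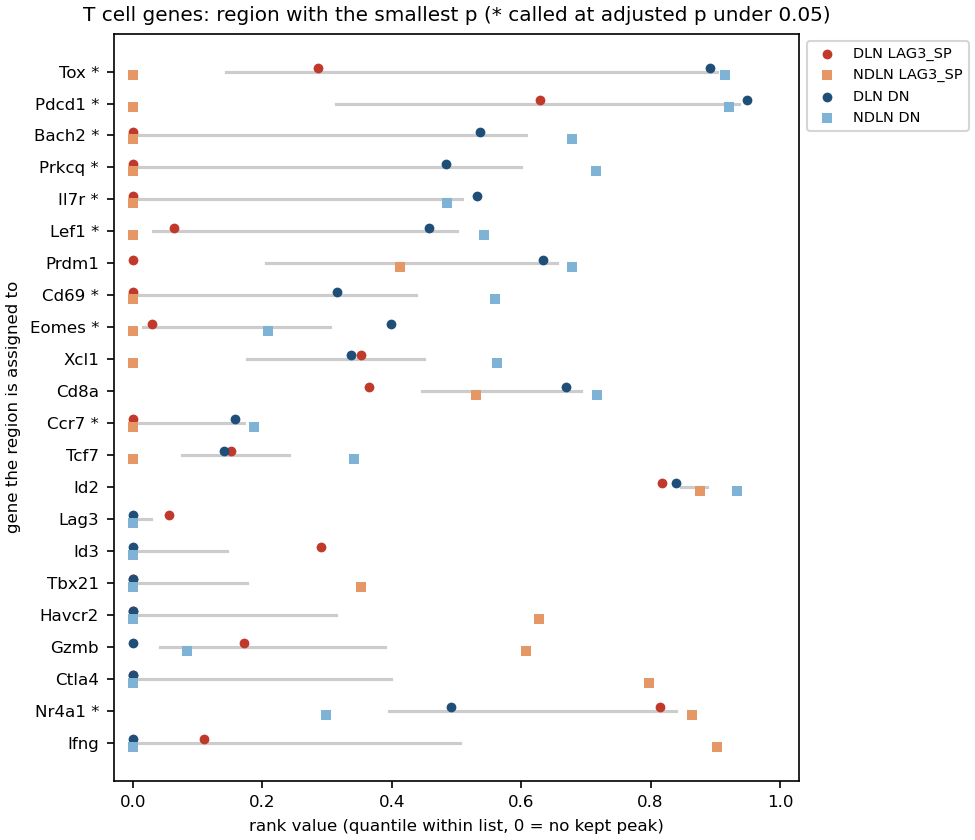
Rank values at the region with the smallest p of each T cell gene shown, ordered by the difference between LAG3_SP and DN; a star marks an adjusted p under 0.05. Points are libraries (red and orange LAG3_SP, blue DN) and grey lines join the group means. Tox, Bach2, Prkcq and Il7r have both DN values to the right of both LAG3_SP values, and Nr4a1 is the starred gene with the reverse order, while at the regions shown for Ifng, Ctla4 and Havcr2 the highest value is that of NDLN LAG3_SP.

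Nr4a1 encodes NUR77, an orphan nuclear receptor induced by T cell receptor signals, and 2 of its 4 regions were called higher. The region 7.44 kb from the gene (chr15:101246211-101246711) had 0.814 and 0.864 in LAG3_SP and 0.492 and 0.299 in DN (difference 0.443, SE 0.0779, adjusted p 0.00212). The region in the gene (chr15:101266606-101267106) had 0.774 and 0.94 against 0.588 and 0.353 (difference 0.387, adjusted p 0.0105). Both stayed in all 4 lists, and the LAG3_SP values were above the DN values in both nodes. The TDT_SP libraries stood at 0.83 and 0.87 at the former. Without NDLN LAG3_SP the former difference was 0.419 (adjusted p 0.0198). Of the 5 regions assigned to Jun, an AP-1 subunit of the same early response list, 3 were lower. These lay 16, 54.3 and 65.4 kb from the gene and nearer to other listed starts, at 2.82, 11.7 and 22.8 kb. The region at chr4:95106252-95106752 had 0.049 and 0.00656 in LAG3_SP and 0.834 and 0.784 in DN (difference -0.781, adjusted p 0.00144). By contrast, the region at the Jun start had 0.963 and 0.85 against 0.867 and 0.945 (adjusted p 1). The region 1.14 kb from the gene had 0.654 and 0 against 0.838 and 0.611 (adjusted p 0.244), so neither was called. Cd69, an early activation marker that holds T cells in tissue, had 1 of 9 regions called (chr6:129234376-129234876), with 0 in both LAG3_SP libraries and 0.315 and 0.559 in DN (adjusted p 0.000793). The strongest Cd69 region, chr6:129284344-129284844, had 0.921 and 0.955 in LAG3_SP and 0.994 and 0.989 in DN (adjusted p 0.63). The early response list had 2 of 96 regions higher (2.08%) and 5 lower (5.21%), both below the shares over all regions.

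At exhaustion genes, 8 of 120 regions were lower (6.67%) and 2 higher (1.67%), again below the shares over all regions. Pdcd1, which encodes PD-1, had 0.629 and 0 in LAG3_SP and 0.949 and 0.922 in DN at 1 of its 10 regions, 39.4 kb from a listed start (chr1:94091688-94092188, difference -0.621, adjusted p 0.0273). That call was lost without NDLN LAG3_SP (adjusted p 0.14), without DLN DN (0.141) and without NDLN DN (0.123). Lag3 itself was not called in any of its 9 regions: the one with the smallest p had 0.0559 in DLN LAG3_SP and 0 in the other 3 libraries (adjusted p 0.673). None of the 7 regions of Ctla4 or the 4 of Havcr2, both inhibitory receptor genes, was called. At their regions with the smallest p, chr1:60911552-60912052 and chr11:46461939-46462439, NDLN LAG3_SP had 0.797 and 0.628 and the other 3 libraries 0 (adjusted p 0.204 and 0.273). Other regions of both genes had peaks elsewhere: Ctla4 at chr1:60908783-60909283 had 0.2 and 0.664 in LAG3_SP and 0.448 and 0.502 in DN, and Havcr2 at chr11:46466860-46467360 had 0.235 and 0.551 in LAG3_SP and 0 in DN. Ifng, the interferon-gamma gene, was not called in any of its 12 regions. The one with the smallest p (chr10:118470660-118471160) had 0.109 in DLN LAG3_SP, 0.902 in NDLN LAG3_SP and 0 in DN (adjusted p 0.136), and another (chr10:118468994-118469494) had 0.582 and 0.934 in LAG3_SP and 0.625 and 0.69 in DN (adjusted p 0.824). Tbx21, the effector factor T-bet, had 0.353 in NDLN LAG3_SP and 0 in the others at the region with the smallest p of its 3 (chr11:97104028-97104528, adjusted p 0.496). Gzmb, Prdm1, Id2, Id3, Xcl1 and Cd8a were not called either.

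Effector and cytotoxic genes had 8 of 105 regions lower (7.62%) and none higher (0%), both below the 8.13% and 3.24% of all regions. Il12rb2, a subunit of the IL-12 receptor, had 0 in both LAG3_SP libraries and 0.821 and 0.777 in DN (chr6:67317830-67318330, difference -0.799, SE 0.0495, adjusted p 5.22e-06). Its strongest region, chr6:67348003-67348503, had 0.903 to 0.987 in all 4 libraries (adjusted p 0.72). Cst7, which encodes the protease inhibitor cystatin F, at chr2:150558551-150559051 had 0.302 and 0 in LAG3_SP and 0.684 and 0.838 in DN (adjusted p 0.00185). Eomes, the T-box factor of memory and cytotoxic cells, had 1 of 7 regions called (chr9:118390692-118391192), with 0.0293 and 0 against 0.399 and 0.209 (adjusted p 0.00142). In the NK and innate list 7 of 34 regions were lower (20.6%, against 8.13% of all regions), 4 of them at Cd226, an activating receptor that CD8 T cells also carry, and 2 at Klrb1c, where neither group had a kept peak within 2 kb of the gene itself.

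The shares of the remaining lists are read against the same 8.13% lower and 3.24% higher of all regions. Progenitor exhausted genes had 10 of 85 regions lower (11.8%), 6 of them the Bach2 regions already described, and 3 higher (3.53%), at Cxcr5, Ikzf2 and Lef1. Cytokine receptor and STAT genes had 11 of 140 lower (7.86%) and 2 higher (1.43%), at Cish and Stat3. Tissue residency genes had 4 of 65 lower (6.15%), at Cd69, Rgs1 and Rgs2, and 3 higher (4.62%), at Bhlhe40 and Nr4a1. Cell cycle genes had 3 of 51 lower (5.88%) and 1 higher (1.96%), at Cdk4, the G1 kinase, where chr10:127063254-127063754 had 0.818 and 0.707 in LAG3_SP and 0.271 and 0.196 in DN (adjusted p 0.00589, and 0.0505 without NDLN DN). CD4 and Treg genes had 3 of 23 lower (13%) and 1 higher (4.35%), melanoma genes 1 of 7 lower (14.3%, Mitf), and myeloid genes 1 of 12 lower (8.33%, Flt3). Interferon, B cell and stroma lists, with 17, 7 and 9 regions, had 0 calls in either direction (limma). Housekeeping genes had 2 of 28 lower (7.14%), at B2m and Ywhaz, and 1 higher (3.57%), at Rpl13a.

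Lower regions were assigned to 1313 genes, of which 1003 had 1 such region and 85 had 3 or more. Btg1, an antiproliferative gene that helps keep T cells quiescent, had 8 of 13 regions lower while the region at its start was shared by all 4 libraries (0.937 and 0.821 against 0.766 and 0.868, adjusted p 0.399). Wwox, a large tumor suppressor gene, had 8 of 20 regions lower, and Prag1 and Trio had 7 of 10 and 7 of 14. At Prag1, a pseudokinase gene, the region with the smallest p had 0 in both LAG3_SP libraries and 0.78 and 0.751 in DN (chr8:36010399-36010899, difference -0.765, adjusted p 5.22e-06). No gene had more than 2 regions called higher, and 21 genes had 2, among them Foxp1, Nr4a1, S1pr1 and Enpp6. By chromosome, lower calls ranged from 1.57% of regions on chromosome 19 and 2.08% on chromosome 11 to 12.2% on chromosome 16, and higher calls from 0% of 497 regions on the X chromosome to 5.98% on chromosome 19.

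Presence in the 4 lists was described without a test. All 4 lists shared 8100 regions (34.7% of all regions), of which 439 were called higher and 140 lower. Both LAG3_SP lists and neither DN list held 945 regions (4.04%), of which 196 were called higher. Both DN lists and neither LAG3_SP list held 1592 (6.81%), of which 1055 were called lower. Within 1 kb of a start lay 40.4% of this LAG3_SP set and 8.54% of this DN set, against 39.2% of all regions. Presence alone thus did not show the promoter share of the regions called higher. A further 2408 regions (10.3%) were in all lists but NDLN LAG3_SP (640 called lower), and 1852 (7.93%) were in NDLN LAG3_SP alone. The regions of both DN lists and neither LAG3_SP list were found in a median of 0 of the 9 tumor libraries, and those of both LAG3_SP lists and neither DN list in a median of 8. Counting peaks above and below the cut, 94.1% of the lower regions had a peak in the whole DLN LAG3_SP list of 34123 peaks. A kept peak of that library was present at 41.1%. In either whole LAG3_SP list, 111 of the 1900 (5.84%) had none. In NDLN LAG3_SP, whose list was not shortened, 10.8% of the lower regions had a peak. Over all regions the shares with a peak in the whole list were 91.1% in DLN LAG3_SP and 53.9% in NDLN LAG3_SP. Likewise, 94.1% and 93.9% of the higher regions had a peak in the whole DLN and NDLN DN lists, and 30 (3.96%) had none in either, against 87.6% and 86.1% of all regions with a peak in those lists.

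The Jaccard index, the share of regions with a kept peak in either library of a pair that have one in both, was 0.803 between the DN libraries of the 2 nodes and 0.577 between the LAG3_SP libraries. Within the draining node LAG3_SP and DN shared 0.661, and within the non-draining node 0.524. The DN libraries of the 2 nodes thus resembled each other more than either resembled a LAG3_SP library. The mean within subsets was 0.69 and between them 0.592, a difference of 0.098 with an exact permutation p of 0.333, the smallest that 2 against 2 allows. DLN LAG3_SP shared 0.708 and 0.7 with the TDT_SP libraries, and 0.687 ± 0.0231 (SD, n = 3) with tumor DN libraries. With tumor LAG3_SP libraries it shared 0.571 ± 0.0215 (SD, n = 3). DLN DN shared 0.588 ± 0.0285 (SD, n = 3) with the same tumor DN libraries. NDLN LAG3_SP shared 0.613 ± 0.0175 with tumor LAG3_SP, 0.613 ± 0.0186 with tumor TDT_SP and 0.609 ± 0.0204 with tumor DN libraries (SD, n = 3 each), and 0.523 to 0.598 with the lymph node libraries.

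**Figure D5:**
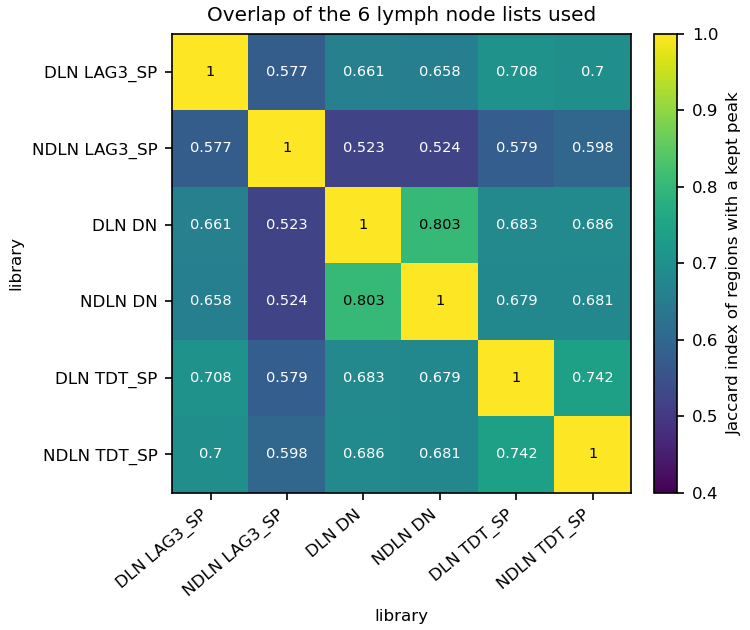
Jaccard index between the 6 lymph node libraries with 10000 or more peaks, over regions with a kept peak, on a colour scale from 0.4 to 1. The DN pair has the highest index off the diagonal, 0.803, and NDLN LAG3_SP has the lowest indices, 0.523 to 0.598.

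The lymph node differences were set beside those of tumor LAG3_SP and DN cells, 3 libraries each, whose controls are other libraries. In the tumor, 756 regions were called higher (3.24%) and 225 lower (0.963%), 981 in all (4.2%). Regions higher in both places numbered 47, which was 6.2% of those of the node and 6.22% of those of the tumor. Regions lower in both numbered 17, 0.895% and 7.56%. The difference between the node and the tumor effect was itself called at 1968 regions (8.42%), 512 with a higher effect in the node (2.19%) and 1456 with a lower one (6.23%). Of the 1900 lower regions of the node, 1170 were among these, and of the 758 higher ones, 359. At 864 of those 1170 and 22 of those 359, none of the 6 tumor LAG3_SP and DN libraries had a kept peak, so the value equals the node difference. At the lower regions the share with a kept peak was 100% in both node DN libraries and 8% to 26.1% in the 9 tumor libraries, tumor DN included. At the higher regions the median rank value of every tumor library, 0.711 to 0.779, was at or above the 0.7 of DLN LAG3_SP. These shares are descriptions, since the regions had been chosen by their difference in the node.

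At Rab3ip, the node difference exceeded that of the tumor by 1.01 (0.763 against -0.243, interaction adjusted p 0.00235). At Tox, the difference was -0.76 in the node and -0.00833 in the tumor (interaction adjusted p 0.00495), where the mean rank value was 0 in LAG3_SP and 0.00833 in DN, so the value nearly restates the node difference. At Nr4a1 it was 0.443 in the node and -0.0808 in the tumor (interaction adjusted p 0.00617). Prkcq, Bach2, Lef1, Il7r and Ccr7 also differed between the node and the tumor at an interaction adjusted p under 0.05, and at Prkcq, Bach2, Lef1 and Ccr7 the tumor difference was 0 because no kept peak was present in tumor LAG3_SP or DN lists. At Pdcd1 the tumor difference was -0.492, and the difference between the places was not called (interaction adjusted p 0.764).

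The TDT_SP libraries of the nodes share the DN controls, so their values are given side by side only. At the 1900 lower regions 49.4% and 50.7% had a kept peak in DLN and NDLN TDT_SP, against 41.1% and 10.8% in DLN and NDLN LAG3_SP. At the 758 higher regions the median rank values were 0.558 and 0.566 in TDT_SP, between those of DN (0.222 and 0.184) and of LAG3_SP (0.7 and 0.75). At Gtsf1l the TDT_SP values were 0.929 and 0.872, and LAG3_SP had 0.781 and 0.751 with 0 in DN. At Klhl6 they were 0.656 and 0.714, near the DN values of 0.813 and 0.674.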

How the data were processed

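Sorted CD8+ T cells were profiled by ATAC-seq with the Omni-ATAC protocol, per the labels' protocols. Per the submitters' processing notes, BWA did the alignment and MACS2 the peak calling, on build GRCm38 (mm10). The sources used here give no versions or settings and do not say whether reads were shifted for Tn5. The deposited lists, 1 per library, give each peak a fold ratio over local background, a -log10 p and a -log10 q, all computed by the authors' caller within that library. The deposited summit files matched the lists in every row in position and in -log10 q. The lists hold no read counts, so depth is unknown.

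The 14244 peaks of lowest p per library on the autosomes and X were turned into rank values over regions reaching 250 bp to either side of a summit. Regions with a kept peak (1 bp overlap) in at least 2 of 15 libraries entered limma 3.58.1 in R 4.3.3 (lmFit, eBayes with a trend), with 6 groups (DN, LAG3_SP and TDT_SP of node and tumor, DLN and NDLN pooled). The difference is node LAG3_SP minus node DN, the interaction subtracts the same difference in tumor, and Benjamini-Hochberg adjustment ran over all 23368 regions. The code was tested on simulated data. SE is the standard error of the difference.

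Each region took the name of the closest protein-coding gene, at most 100 kb away (RefSeq, GRCm38.p6), and promoter sequences come from RefSeq. Members, the 19 gene lists and tests were chosen with earlier results of these data known. Named regions were those with the smallest p for 23 T cell genes, the 4 genes of lowest p in each list among regions whose groups did not overlap, the 10 largest differences in each direction, and the 5 genes with the most calls in each direction, ties in alphabetical order. Other regions of these genes, and the promoters printed, were picked after their values were seen. Results at some named genes are not reported here.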

Additional observations from a re-analysis of the deposited data

Results flagged for a closer look

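At 54 of the 74 named regions called in the lymph nodes, the LAG3_SP minus DN difference was not the same in the nodes and in the tumor by the interaction test (limma, adjusted p under 0.05). The values below are the node difference minus the tumor difference in rank value. At 32 of the 54, all of them lower in the node, neither tumor LAG3_SP nor tumor DN had a kept peak, so the value equals the node difference. The node difference was the higher one at B3gnt2 (0.594), Cdk4 (0.679), Gtsf1l (0.475), Nr4a1 (0.524), Prr14 (0.805), Rab3ip (1.01), Rgs8 (0.618), Slc17a6 (0.575) and Wipi2 (0.8).

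At naive, memory and T cell identity genes it was the lower one at Bach2 (-0.84 and -0.607), Bcl2 (-0.414), Ccr7 (-0.172), Eomes (-0.289), Ets1 (-0.566), Foxp1 (-0.383), Il7r (-0.487) and Lef1 (-0.468). Genes of the T cell receptor pathway and its brakes were Nfkb1 (-0.301), Prkcq (-0.599), Rasgrp1 (-0.322) and Sla2 (-0.529). Exhaustion, effector and early response genes were Cd160 (-0.11), Cst7 (-0.61), Il12rb2 (-0.799), Jun (-0.669), Klrd1 (-0.553) and Tox (-0.752). Residency and cytokine genes were Cd69 (-0.437), Il6st (-0.585), Jak1 (-0.223), Rgs1 (-0.568) and Rgs2 (-0.363). Cell cycle and housekeeping genes were B2m (-0.351), Ccne1 (-0.577), Cdk6 (-0.361) and Ywhaz (-0.194). From the lists of NK and innate, CD4 and Treg, myeloid and melanoma genes there were Cd226 (-0.363), Cd4 (-0.349), Cd40lg (-0.387), Flt3 (-0.182) and Mitf (-0.33). Of these, Cd226 is also carried by CD8 T cells.

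The remaining genes were chosen for their large or many changes: Bivm (-0.79), Btg1 (-0.336), D16Ertd472e (-0.811), Gpr180 (-0.86), Ift57 (-0.622) and Nek10 (-0.836). The others were Prag1 (-0.765), Tmem123 (-0.814), Tmem243 (-0.827), Trio (-0.331), Tshr (-0.923) and Wwox (-0.714). Since these regions had been selected for their node difference, the count is a description.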

How the results depend on the processing

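The number of regions called between node LAG3_SP and DN, 2658, fell to 0 with the 4 libraries alone and with the 6 lymph node libraries, and to 34 with the node as a block. It was 926 with the 5000 strongest peaks, 813 with NDLN DN replicate 2 added at its length, and 1435 with presence or absence. Presence or absence was tested on the same 23368 regions. The fits with the 5000 strongest peaks and with NDLN DN replicate 2 tested fewer regions. As a share of the regions tested, calls with the 5000 strongest peaks were only slightly fewer than in the main fit. That share fell further with NDLN DN replicate 2 added and with presence or absence. Leaving out 1 library gave 1607 (without NDLN DN) to 4729 (without DLN LAG3_SP). With the replicate number as a replicate block it was 2149. The label numbers mark no shared animal, every node library used was replicate 1, and so no paired deviation could be checked. With all peaks of each list, 94 regions were higher and 2167 lower, against 758 and 1900. That fit tested more regions than the main one, so the share called fell by more than the count.

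The interaction calls, 1968, were 1144 with the replicate block, 700 with the 5000 strongest peaks, 1079 with all peaks, 495 with NDLN DN replicate 2, 1189 ranked by fold and 1282 with a peak in at least 3 libraries, and 1218 to 2813 on leaving out 1 library. Here too, the number of regions tested was not the same in every fit, so these counts are not shares. The gap between LAG3_SP and DN in the share of summits near gene ends, 6.08 percentage points, was 7.97 with 10000 peaks, 10.5 with 5000 and 9.51 with all. Regions of both LAG3_SP lists and neither DN list, 945, were 440 with 5000 peaks and 120 when absent from the whole DN lists. The reverse, 1592, was 712 and 167. The Foxp1 region called higher at chr6:99261229-99261729 reversed to -0.0319 with all peaks. Of the 74 calls at named regions, 74 were lost with the 4 libraries, with or without the node as a block. With the 6 lymph node libraries 74 were lost as well. With all peaks 60 were lost besides the reversed Foxp1 region, and 40 with presence or absence. Some were lost on leaving out 1 library. The cause was not tested for any of these changes.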
